A study of Mus musculus with 6 samples.

Results

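To determine how antioxidant enzyme genes are expressed when the coactivator PGC-1α is overexpressed in microglia, 10 genes were examined in array data from sorted mouse microglia. They comprised Sod1 and Sod2 for superoxide, Prdx3, Prdx5, Gpx1, Gpx4 and Cat for peroxides, and Txn2, Txnrd2 and Glrx2 for the reduction of oxidized thiols. The members were every non-control probe whose transcript accession mapped to 1 of these symbols. This gave 13 of the 56605 probes on the array, and 10 of the 23462 genes with a matched probe. Microglia came from mice labelled as male and 10 weeks old, with 3 arrays of PGC-1αf/f and 3 of mPGC-1α animals. The mice had a C57BL/6 background. The PGC-1αf/f genotype is a loxP-flanked PGC-1α allele linked to an eGFP reporter, made for overexpression once Cre recombinase acts on it. The mPGC-1α animals have the same allele together with a tamoxifen-inducible Cre driven from the Cx3cr1 locus, a locus used by microglia and also by other myeloid cells. Littermates without Cre served as controls. The methods describe tamoxifen before experiments in general, and both genotypes received it before the stroke surgery and the imaging, with no separate statement for the animals of these arrays. Cells were selected magnetically through P2RY12, a receptor of microglia. The labels do not state whether each array holds 1 animal or a pool, so the p-values below measure only the spread between these arrays.

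Mitochondria release superoxide from the respiratory chain, and superoxide dismutases convert it to hydrogen peroxide. Peroxiredoxins, glutathione peroxidases and catalase then remove the peroxide, with reducing power supplied through the thioredoxin and glutathione systems. PGC-1α is known in other cell types as a coactivator of mitochondrial biogenesis and of several of these enzymes, and microglia additionally make superoxide on purpose through the phagocyte NADPH oxidase.

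Values are log2 signal minus the 75th percentile of the array, so that 0 is the level of that percentile. The brightness of different probes depends on their sequence, and levels are therefore compared between groups and not between genes. The 75th percentile ranged from 1012 to 2138 intensity units, 0 spots were saturated, and the number of arrays, 3 a group, limits the precision. The microglial markers P2ry12, Tmem119 and Cx3cr1 were well above background on all 6 arrays, as were all 12 markers of the microglia list. The differences of 11 of these 12 were negative, with a median of -0.24, and 0 passed the adjusted threshold (limma). Cx3cr1, whose locus carries the Cre in mPGC-1α mice, was lower on every mPGC-1α array, with a difference of -0.51 (limma adjusted p 0.194). Some arrays stood apart or went against their labels. The mean correlation of PGC-1αf/f replicate 3 to the remaining arrays was 0.928, against 0.962 to 0.972 for the rest. The 10 neutrophil markers summed to 15.2 times the 75th percentile on it, against 112 and 136 on the other PGC-1αf/f arrays and 136 to 160 on the mPGC-1α arrays. Furthermore, all arrays were labelled male, but Xist, the RNA of the inactive X chromosome, was well above background on PGC-1αf/f replicate 2, mPGC-1α replicate 2 and mPGC-1α replicate 3, at -2.78, -2.40 and -1.63, and not on the remaining 3, at -6.47 to -5.44. Of 4 Y-linked genes, mPGC-1α replicate 3 had 0 well above background and each other array 4. Whether an array held RNA of female animals, or of a pool, was not tested. Slide positions are not in the labels and were read from the deposited array names. By these names a single slide held the 6 arrays, the PGC-1αf/f ones in its row 1 and the mPGC-1α ones in its row 2, so slide row and group cannot be told apart. Ppargc1a, which encodes PGC-1α, gave 0.19, -0.44 and -1.21 in PGC-1αf/f and 0.57, 0.28 and 0.077 in mPGC-1α microglia. The groups overlapped, and the difference of 0.80 (SE 0.35) had a limma adjusted p of 0.306. The Ppargc1a difference was 0.44 without PGC-1αf/f replicate 3.

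All 13 member probes were well above background on all 6 arrays. Each of the 10 genes was thus measured in RNA of the sorted cells, and none was lost to a filter on dim probes. Which cells of the preparation gave the signal was not tested. In mPGC-1α microglia the signal was higher for 8 of the 10 genes and lower for 2, with a median log2 difference of 0.21 and a range from -0.14 for Txnrd2 to 0.38 for Cat. Under a median shift, quantile normalization or normexp with quantile normalization, Txn2 turned negative and 7 genes were higher. The median over all tested probes was near 0 (-0.0026), or -0.14 under the median shift, where the median of the members was 0.074. However, 0 of 10 genes passed an adjusted p of 0.05 (limma, Benjamini-Hochberg over all tested probes), against 0.0792% of all tested probes, and the smallest adjusted p was 0.352. At an unadjusted p of 0.05 the count was also 0 of 10 in either direction, where 7.53% of all tested probes were higher and 9.21% were lower. Among the 8 genes with a value on every array, the groups overlapped for all 8, where 11.4% of all probes with complete values did not overlap with mPGC-1α higher and 13.7% did not overlap with mPGC-1α lower. The 95% interval of the difference contained 0 for all 10 genes. These intervals ran from 0.645-fold for Prdx3 at the lowest to 1.82-fold for Prdx5 at the highest, and hence all 10 lay within a 2-fold change either way.

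The number of higher genes and the median difference depended on which arrays were included. PGC-1αf/f replicate 3 held the lowest value of 7 of the 10 genes. When each gene was centred on its mean over the arrays and the genes were averaged, the PGC-1αf/f arrays gave 0.13, -0.12 and -0.26 and the mPGC-1α arrays gave 0.11, -0.013 and 0.20. Thus PGC-1αf/f replicate 1 lay above mPGC-1α replicates 1 and 2, while PGC-1αf/f replicate 3 lay below all others. Without PGC-1αf/f replicate 3, 7 of 10 genes were higher and the median difference was 0.083. Without this array and mPGC-1α replicate 3, an alternative added after the data were seen, 5 genes were higher, 5 were lower and the median difference was 0.030. Without the 3 arrays with Xist, a further alternative added then, 2 PGC-1αf/f arrays and a lone mPGC-1α array, assumed to vary like the controls, were left. There 7 genes were higher, 3 were lower and the median difference was 0.12. In contrast, without PGC-1αf/f replicate 1, 9 of 10 genes were higher, the median was 0.35, and Sod2 and Gpx4 passed an unadjusted p of 0.05 but not the adjusted one. In that fit 11.2% of all tested probes were higher at an unadjusted p of 0.05 and 9.68% were lower. With mPGC-1α replicate 3 alone left out, 7 of 10 genes were higher and the median was 0.13. The other single omissions each gave 8 higher genes. Their medians were 0.13 without PGC-1αf/f replicate 2, 0.20 without mPGC-1α replicate 1 and 0.29 without mPGC-1α replicate 2.

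**Figure D1:**
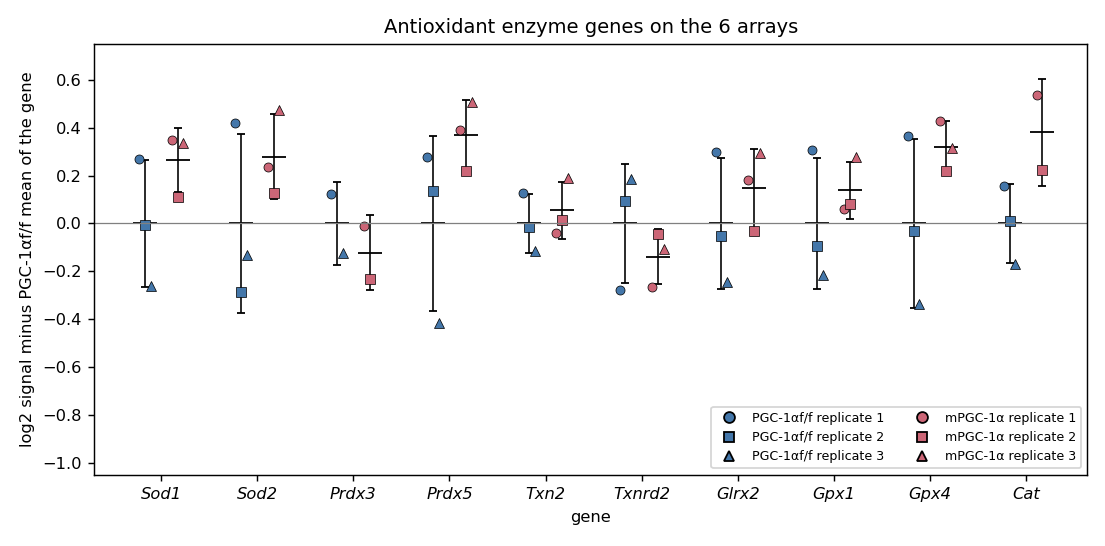
Log2 signal of the 10 antioxidant enzyme genes (x axis), each less its PGC-1αf/f mean (y axis, log2 units). Blue symbols are PGC-1αf/f arrays and red symbols mPGC-1α arrays, with a shape for each replicate number, and bars give the group mean ± SD. The groups overlap for every gene with a value on all 6 arrays, and the blue triangles of PGC-1αf/f replicate 3 lie lowest for 7 of the 10 genes.

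**Figure D2:**
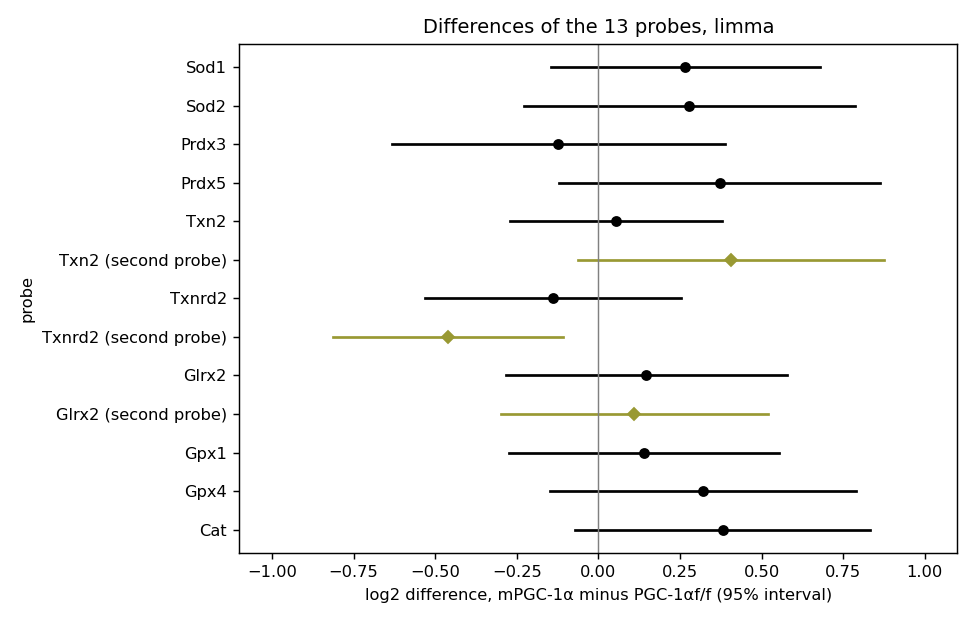
Log2 difference, mPGC-1α minus PGC-1αf/f (x axis), with its 95% interval from limma for each of the 13 probes (y axis). Black points are the probes that stand for a gene and diamonds the second probes of Txn2, Txnrd2 and Glrx2. All black intervals contain 0, and the interval of the dimmer Txnrd2 probe, from -0.81 to -0.11, does not.

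The superoxide dismutases were considered first. Sod1 encodes the copper- and zinc-containing enzyme of the cytosol and the space between the mitochondrial membranes, and Sod2 encodes the manganese enzyme of the mitochondrial matrix. The sequence upstream of each gene is shown because the pair removes the same radical in different compartments and is the direct comparison between mitochondrial and cytosolic defence in these data. The 250 bases before the annotated start site are given on the strand of the gene, from RefSeq on GRCm38.p6, for Sod1 (chr16:90220512-90220761, plus strand) and Sod2 (chr17:13007589-13007838, plus strand). Capitals mark a match to the antioxidant response element.
Sod1: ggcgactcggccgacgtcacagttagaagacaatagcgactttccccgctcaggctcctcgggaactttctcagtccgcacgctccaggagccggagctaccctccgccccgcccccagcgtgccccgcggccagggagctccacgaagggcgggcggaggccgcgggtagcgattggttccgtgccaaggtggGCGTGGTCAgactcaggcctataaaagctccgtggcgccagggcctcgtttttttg
Sod2: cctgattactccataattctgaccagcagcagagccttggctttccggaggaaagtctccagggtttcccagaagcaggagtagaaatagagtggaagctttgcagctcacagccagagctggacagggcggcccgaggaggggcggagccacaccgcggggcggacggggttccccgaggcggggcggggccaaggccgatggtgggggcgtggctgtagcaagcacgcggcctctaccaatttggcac

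The antioxidant response element was searched as TGACNNNGC on both strands in windows of 250 bases before to 50 bases after a start site. It matched in Sod1 and in 0 of the other 9 member genes, while 14% of 27025 mouse genes held it in at least 1 such window. The core of the element bound by estrogen-related receptors, partners of PGC-1α, was searched as AAGGTCA on both strands and matched in 0 of the 16 member promoters, against 4.72% of all promoters. The core of the NRF1 element was searched as GCGCANGCG on both strands. It matched in Gpx4 alone among the 10 genes, in overlapping windows of 2 of its start sites, against 7.03% of all genes. Such a match is a description of the letters, and binding was not measured.

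Sod1 gave 3.85, 3.57 and 3.32 in PGC-1αf/f and 3.93, 3.69 and 3.92 in mPGC-1α microglia. PGC-1αf/f replicate 1 reached the level of the mPGC-1α arrays, so the groups overlapped. The means were 3.58 ± 0.27 (SD, n = 3) and 3.85 ± 0.13 (SD, n = 3), a difference of 0.27 (SE 0.17, 95% interval -0.15 to 0.68) with a limma adjusted p of 0.455. For Sod1, leaving out PGC-1αf/f replicate 3 gave a difference of 0.13, and leaving out PGC-1αf/f replicate 1 gave 0.40. Sod2 gave 0.58, -0.13 and 0.021 in PGC-1αf/f and 0.39, 0.28 and 0.63 in mPGC-1α microglia. Again PGC-1αf/f replicate 1 lay among the mPGC-1α arrays, whereas the other PGC-1αf/f arrays lay below them. The means were 0.16 ± 0.37 (SD, n = 3) and 0.43 ± 0.18 (SD, n = 3), which is a difference of 0.28 (SE 0.21, 95% interval -0.23 to 0.79), or 1.21-fold, and the limma adjusted p was 0.524. Within a slide column the difference of Sod2 was -0.18 in column 1 and 0.41 in column 2, so that its direction was not the same in both. Leaving out 1 array at a time moved it between 0.14, without PGC-1αf/f replicate 2, and 0.49, without PGC-1αf/f replicate 1.

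Next, whether the mitochondrial dismutase moved relative to the cytosolic enzyme was tested within each array, where the scaling cancels. Log2 Sod2 minus log2 Sod1 was -3.27, -3.70 and -3.30 in PGC-1αf/f and -3.54, -3.41 and -3.29 in mPGC-1α microglia. The size of this value compares different probes and has no meaning on its own. The group means, -3.42 ± 0.24 and -3.41 ± 0.13 (SD, n = 3 each), differed by 0.013, with a two-sided exact permutation p of 0.9 over the 20 relabellings. The smallest p that 3 against 3 arrays allow is 0.1.

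The peroxiredoxins were measured by 1 probe each. Prdx3 encodes the peroxiredoxin of the mitochondrial matrix, which uses thioredoxin 2 to reduce hydrogen peroxide. Its spot was flagged as an outlier on PGC-1αf/f replicate 2 and mPGC-1α replicate 3, and the fit rested on the remaining arrays. These gave 1.75 and 1.51 in PGC-1αf/f and 1.62 and 1.40 in mPGC-1α microglia. The difference was -0.12 (SE 0.20, 95% interval -0.63 to 0.39), with a limma adjusted p of 0.776. With the flagged spots kept, the values were 1.56 on PGC-1αf/f replicate 2 and 1.63 on mPGC-1α replicate 3, the groups overlapped and the difference was -0.060.

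Prdx5, a peroxiredoxin found in mitochondria, peroxisomes and the cytosol, gave 4.10, 3.96 and 3.41 in PGC-1αf/f and 4.21, 4.04 and 4.33 in mPGC-1α microglia. PGC-1αf/f replicate 1 lay between the mPGC-1α arrays, and PGC-1αf/f replicate 3 was far below the rest. The difference was 0.37 (SE 0.21, 95% interval -0.12 to 0.86), or 1.29-fold (limma adjusted p 0.391). It was 0.11 within slide column 1 and 0.085 within slide column 2. Without PGC-1αf/f replicate 3, which also had the low neutrophil marker sum, the difference of Prdx5 was 0.16. Without it and mPGC-1α replicate 3 the difference was 0.10.

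The mitochondrial thioredoxin pair serves Prdx3, and each gene had a pair of probes. Txn2 encodes thioredoxin 2, and its brighter probe gave 3.43, 3.28 and 3.19 in PGC-1αf/f and 3.26, 3.31 and 3.49 in mPGC-1α microglia. The groups overlapped. The difference was 0.055 (SE 0.14, 95% interval -0.27 to 0.38) with a limma adjusted p of 0.860, and it was -0.078 under a median shift, -0.056 under quantile normalization and -0.18 under normexp with quantile normalization. The dimmer Txn2 probe differed by 0.41 (SE 0.19, 95% interval -0.063 to 0.88, limma adjusted p 0.344), with the spot of mPGC-1α replicate 2 flagged and left out. With that spot kept at 1.35, within the PGC-1αf/f range of 1.03 to 1.51, the difference was 0.29. Whether the probes of Txn2 differed in their change was not tested.

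Txnrd2 encodes the mitochondrial thioredoxin reductase, a selenoprotein that returns thioredoxin 2 to its reduced form. Its brighter probe gave 0.84, 1.21 and 1.31 in PGC-1αf/f and 0.85, 1.08 and 1.02 in mPGC-1α microglia. All mPGC-1α values lay inside the PGC-1αf/f range. The difference was -0.14 (SE 0.17, 95% interval -0.53 to 0.25) with a limma adjusted p of 0.689. Leaving out PGC-1αf/f replicate 3 gave -0.045, and leaving out PGC-1αf/f replicate 1 gave -0.28. The dimmer probe gave -2.94, -2.85 and -2.86 in PGC-1αf/f and -3.10, -3.44 and -3.48 in mPGC-1α microglia. It was the single member probe of 13 past an unadjusted p of 0.05, and the single probe of the 10 with complete values whose groups did not overlap. Among all probes, 9.21% were lower at that p and 13.7% did not overlap with mPGC-1α lower. The difference was -0.46 (SE 0.15, 95% interval -0.81 to -0.11), or 0.727-fold, and the limma adjusted p was 0.229. It was -0.16 within slide column 1 and -0.59 within slide column 2, and leaving out 1 array at a time kept it between -0.58 and -0.39. The signal of this probe was 131 to 294 intensity units, against 1814 to 5298 for the brighter probe. Whether the probes of Txnrd2 differed in their change was not tested.

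Glrx2 encodes glutaredoxin 2, which uses glutathione to reduce protein thiols in mitochondria. The brighter probe gave 5.40, 5.05 and 4.86 in PGC-1αf/f and 5.28, 5.07 and 5.40 in mPGC-1α microglia, and the groups overlapped. The difference was 0.15 (SE 0.18, 95% interval -0.28 to 0.58) with a limma adjusted p of 0.699. Leaving out PGC-1αf/f replicate 3 gave 0.024, and leaving out PGC-1αf/f replicate 1 gave 0.30. The second probe differed by 0.11 (SE 0.17, limma adjusted p 0.763), close to the brighter one.

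The glutathione peroxidases followed. Both are selenoproteins. Gpx1, the peroxidase of the cytosol and mitochondria for soluble peroxides, gave 4.54, 4.14 and 4.02 in PGC-1αf/f and 4.29, 4.31 and 4.51 in mPGC-1α microglia. The highest value of all 6 arrays was that of PGC-1αf/f replicate 1. The difference was 0.14 (SE 0.17, 95% interval -0.27 to 0.55) with a limma adjusted p of 0.702, and it was -0.25 within slide column 1 and 0.17 within slide column 2. It was 0.031 without PGC-1αf/f replicate 3, 0.29 without PGC-1αf/f replicate 1 and 0.0066 under the median shift.

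Gpx4 reduces peroxidized lipids in membranes and is known as the enzyme that holds back ferroptosis. The 250 bases before the start site of its second listed promoter (chr10:80053315-80053564, plus strand, GRCm38.p6, RefSeq) are shown because it alone among the members held an NRF1 core, marked in capitals.
Gpx4: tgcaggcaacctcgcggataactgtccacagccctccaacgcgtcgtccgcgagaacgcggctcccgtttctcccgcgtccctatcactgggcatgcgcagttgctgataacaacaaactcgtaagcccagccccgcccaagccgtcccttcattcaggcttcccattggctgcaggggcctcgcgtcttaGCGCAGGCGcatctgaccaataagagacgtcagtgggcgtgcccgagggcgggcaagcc

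Gpx4 gave 4.46, 4.06 and 3.76 in PGC-1αf/f and 4.52, 4.31 and 4.41 in mPGC-1α microglia. PGC-1αf/f replicate 1 lay between the mPGC-1α arrays and the other PGC-1αf/f arrays lay below them. The difference was 0.32 (SE 0.20, 95% interval -0.15 to 0.79), or 1.25-fold (limma adjusted p 0.433). It was 0.062 within slide column 1 and 0.25 within slide column 2. Without PGC-1αf/f replicate 3 it was 0.15, and without PGC-1αf/f replicate 1 it was 0.50 with a limma adjusted p of 0.186.

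Cat encodes catalase, the peroxisomal enzyme that splits hydrogen peroxide without a reducing partner and that is also abundant in red blood cells. It gave 1.02, 0.87 and 0.69 in PGC-1αf/f and 1.40 and 1.08 in mPGC-1α microglia, with the spot of mPGC-1α replicate 3 flagged as an outlier and left out. The difference, 0.38 (SE 0.18, 95% interval -0.072 to 0.83), or 1.30-fold, was close to that of Prdx5, and its limma adjusted p was 0.352. With the flagged spot kept at 0.99, the groups overlapped and the difference was 0.30. Leaving out 1 array at a time moved it between 0.22, without mPGC-1α replicate 1, and 0.54, without mPGC-1α replicate 2. The summed signal of the 4 measured erythroid markers was 9.06 to 33.9 times the 75th percentile on the PGC-1αf/f arrays and 20.7 to 34.6 on the mPGC-1α arrays, and its part in the Cat values was not tested.

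**Figure D3:**
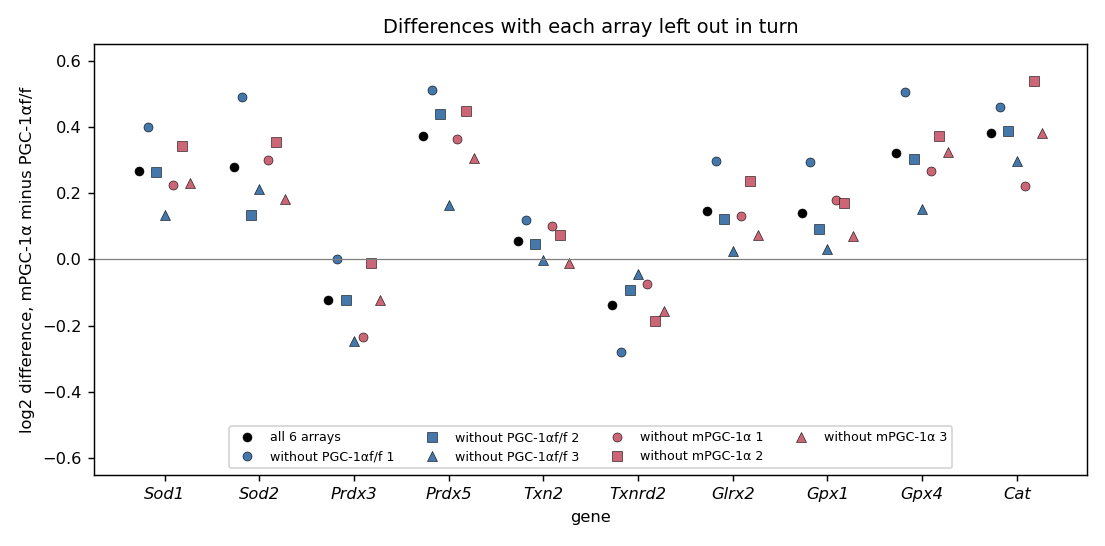
Log2 difference, mPGC-1α minus PGC-1αf/f (y axis), of the 10 genes (x axis) with all 6 arrays (black) and with each array left out in turn (blue for a PGC-1αf/f array, red for an mPGC-1α array, with a shape for the replicate number). For Sod1, Prdx5, Gpx1, Gpx4 and Glrx2 the difference is highest without PGC-1αf/f replicate 1 and lowest without PGC-1αf/f replicate 3.

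To compare the mitochondrial with the other members, the mean of Sod2, Prdx3, Txn2, Txnrd2 and Glrx2 was set against that of Sod1, Gpx1, Gpx4, Prdx5 and Cat on each array after centring each gene. The value was -0.020, 0.029 and 0.31 in PGC-1αf/f and -0.22, -0.086 and -0.051 in mPGC-1α microglia. All mPGC-1α arrays lay below all PGC-1αf/f arrays. The group means were 0.11 and -0.12, a difference of -0.22. Without PGC-1αf/f replicate 3, which held the highest value, the difference was -0.12. The second set includes Prdx5 and Gpx1, whose products are also found in mitochondria. This is a description over chosen genes without a test, and where genes lacked a value on an array the mean was taken over the rest.

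Markers of other cells moved with the groups in part. The summed neutrophil markers, of which 7 of 10 were well above background on all 6 arrays, overlapped between the groups. They ranged from 15.2 to 136.2 on the PGC-1αf/f arrays and from 136.0 to 160 on the mPGC-1α arrays. The 7 measured monocyte and lymphocyte markers, all with positive differences, summed to 5.57 to 24.7 and 23.0 to 32.2, which also overlapped. The low ends, 15.2 for the neutrophil markers and 5.57 here, were on PGC-1αf/f replicate 3. The differences of the 7 border macrophage markers were also all positive, with sums of 9.90 to 11.54 and 10.74 to 17.52, which overlapped. The 7 measured endothelial and mural markers summed to 4.10 to 15.6 and 15.0 to 19.9, which overlapped, with 4.10 on PGC-1αf/f replicate 3. Most of this sum was Ly6c1, and the 6 other markers summed to 1.77 to 4.77 and 3.46 to 6.34, which overlapped. The 9 oligodendrocyte markers, of which 8 had negative differences, summed to 16.4 to 19.9 and 11.6 to 13.9. Of the 7 tested astrocyte markers 3 were positive and 4 negative, with sums of 13.8 to 18.2 and 15.7 to 25.7, and of the 7 tested neuron markers 5 were positive and 2 negative, with sums of 12.5 to 16.3 and 14.7 to 16.6. The part of these cells in the member values was not tested. In bulk RNA, fewer cells of a type and less RNA per cell cannot be told apart.

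Furthermore, other genes of the pathway were counted from lists chosen for their function. The list of related antioxidant genes held other dismutases, peroxiredoxins, thioredoxins, glutaredoxins, glutathione synthesis, NADPH supply and methionine sulfoxide reductases. Of its 27 genes, 26 were tested, and Gpx7 did not pass the filter on dim probes. The difference was positive for 20 genes and negative for 6, with a median of 0.26. Under the median shift, 16 were positive and 10 negative, with a median of 0.13. After adjustment 0 of 26 passed (limma), and the smallest adjusted p was 0.192. At an unadjusted p of 0.05, 5 of 26 were higher and 0 were lower, beside the 7.53% and 9.21% of all tested probes. The groups did not overlap for 10 genes with mPGC-1α higher and for 2 with mPGC-1α lower, beside 11.4% and 13.7% of all probes.

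The 5 genes were Gpx3, Srxn1, Msrb1, G6pdx and Msra. Apart from Gpx3, which the rule for naming genes selects, they are named after their values were seen. Gpx3, the secreted glutathione peroxidase, had the highest difference of the list. It gave -1.56, -1.24 and -2.37 in PGC-1αf/f and -0.79, -0.50 and -0.76 in mPGC-1α microglia, so all mPGC-1α arrays lay above all PGC-1αf/f arrays. The difference was 1.04 (SE 0.29, 95% interval 0.36 to 1.73), or 2.06-fold (limma adjusted p 0.192). Without PGC-1αf/f replicate 3, which held the lowest value, the difference of Gpx3 was 0.72, still the highest of the list. Srxn1, the sulfiredoxin that restores overoxidized peroxiredoxins such as Prdx3, gave -0.082, -0.18 and -0.72 in PGC-1αf/f and 0.41, 0.30 and 0.33 in mPGC-1α microglia. Here too the groups did not overlap, and the difference was 0.67 (SE 0.19, limma adjusted p 0.195). The differences were 0.78 for Msrb1, or 0.46 without PGC-1αf/f replicate 3, and 0.42 for Msra, or 0.27 without that array, both methionine sulfoxide reductases, and 0.48 for G6pdx, the source of NADPH in the pentose phosphate pathway. Gclc, the catalytic subunit of the first enzyme of glutathione synthesis, had the lowest difference of the list, -0.258 (SE 0.15, 95% interval -0.60 to 0.086), with a limma adjusted p of 0.395. Msrb2, named after its values were seen, was close to it at -0.256. Under quantile normalization Msrb2 was the lowest, at -0.31 against -0.29 for Gclc. It was also lowest under normexp with quantile normalization, at -0.34 against -0.23. Without PGC-1αf/f replicate 3, 2 of 26 genes, Gpx3 and Srxn1, were at an unadjusted p of 0.05, where 6.1% of all tested probes were higher and 6.51% lower, and the median was 0.14. Without this array and mPGC-1α replicate 3 the median was also 0.14, with 18 of 26 differences positive. The count of 5 was 9 without PGC-1αf/f replicate 1, with Msrb1, G6pdx and Msra not among them, 3 without mPGC-1α replicate 1, 2 without mPGC-1α replicate 2 and 3 without mPGC-1α replicate 3. In these fits 11.2%, 5.0%, 4.63% and 4.99% of all tested probes were higher, in the order given. The count was 3 under the median shift (5.14% of all tested probes higher) or normexp with quantile normalization (7.25%). It was 1 with the deposited table (4.94%) and 3 with no filter on dim probes (4.03%). It was 8 with slide column as random block (9.15%) and 11 with eBayes trend and robust (7.72%). Without the 3 arrays with Xist the median difference of the list was 0.28. With array weights 4 were higher and 1, Gclc, was lower at -0.33, where 10.8% of all tested probes were higher and 12.1% lower, and the smallest limma adjusted p of the list was 0.071.

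Gpx1, Gpx4 and Txnrd2 need selenocysteine, and genes for selenoprotein synthesis and selenium transport formed another list. Of its 10 genes 9 were tested, and Sepsecs did not pass the filter. After adjustment 0 passed (limma), beside 0.0792% of all tested probes. At an unadjusted p of 0.05 the count was 0 of 9, where 7.53% of all tested probes were higher and 9.21% lower. The median difference was -0.011. The values ran from -0.19 for Secisbp2, which binds the selenocysteine insertion element (SE 0.20, 95% interval -0.65 to 0.27, limma adjusted p 0.631), to 0.36 for Lrp8, a receptor for the selenium carrier Selenop (SE 0.32, 95% interval -0.40 to 1.13, limma adjusted p 0.583). The Lrp8 difference was 0.090 without PGC-1αf/f replicate 3 and 0.68 without PGC-1αf/f replicate 1, where it passed an unadjusted p of 0.05. Secisbp2 gave -0.051 and -0.36 in these fits. With both replicate 3 arrays left out, the signs turned, to -0.072 for Lrp8 and 0.046 for Secisbp2. Hence the selenoprotein members were measured beside a synthesis list whose differences lay on both sides of 0, with 4 positive and 5 negative. This split depended on the arrays and the scaling. It was 6 positive and 3 negative without mPGC-1α replicate 3 (median 0.076), and 7 and 2 without both replicate 3 arrays (median 0.012). Under the median shift it was 3 and 6 (median -0.14).

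**Figure D4:**
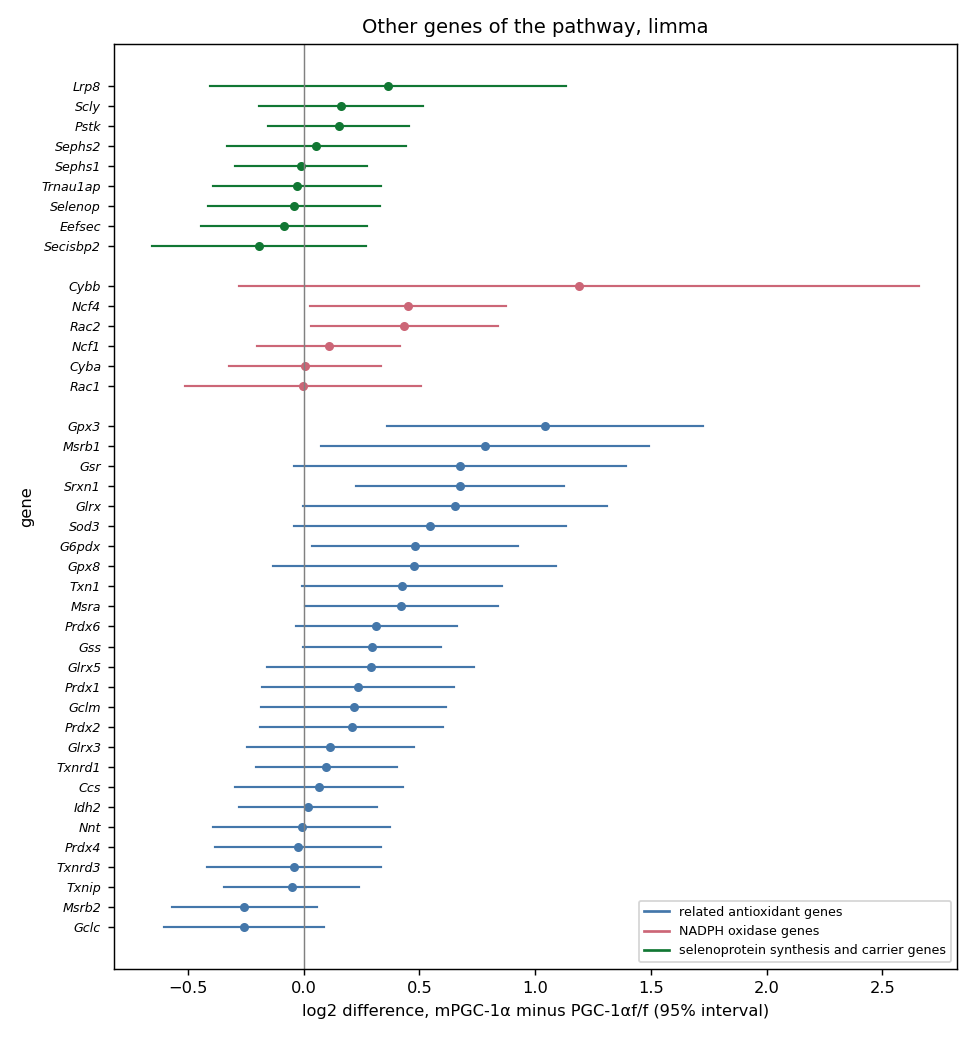
Log2 difference, mPGC-1α minus PGC-1αf/f (x axis), with its 95% interval from limma for tested genes (y axis) of the related antioxidant list (blue), the NADPH oxidase list (red) and the selenoprotein synthesis and carrier list (green), ordered within each list. Of the 26 blue points 20 lie above 0, and Gpx3 is highest among them at 1.04.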

How the data were processed

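Total RNA of sorted microglia was amplified, labelled with Cy5 and hybridized to 1-colour Agilent mouse arrays by the authors. The deposited scanner files hold, per spot, the red processed intensity from Feature Extraction (version 11.5.1.1), from which the software had subtracted background. The deposited values of the whole series were the same intensity, rounded to 3 significant digits. Per the methods, the authors normalized in GeneSpring, and no test per gene is stated. Groups and replicate numbers came from the labels.

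Control spots and spots flagged as outliers were left out. Log2 intensity was reduced by the 75th percentile of the array over 59305 non-control spots, and spots of a probe were averaged. Probes well above background, on at least 0.5 of their spots, on all arrays of a group were tested, which left 25333 of 56605 probes, 25257 of them with a p-value. Probes were named by accession through RefSeq (GRCm38.p6), and 33767 probes had 1 symbol. A gene given by a single value is represented by its brightest tested probe with a value on all 6 arrays, or otherwise by its brightest tested probe. Differences were tested by two-sided moderated tests in limma 3.58.1 (R 4.3.3) and adjusted by the Benjamini-Hochberg method at a threshold of 0.05. The fit was tested on simulated data. Within-array differences were tested by exact permutation. Summed marker levels use linear signal with outlier spots kept.

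The 10 members with all tested probes were named, with Ppargc1a, P2ry12, Tmem119 and Cx3cr1. Some genes of the lists are counted but not reported here by name. From each other list the rule took genes past the threshold and the highest and the lowest difference among genes well above background on all arrays. The members and lists were chosen with earlier results of these data known. Alternatives were other normalizations, the deposited table, other filters on dim or outlier spots, replicate and slide column blocks, array weights, other eBayes settings, the mean over probes, and arrays left out. Files were read with data.table (release 1.17.8). Figures were drawn with matplotlib and pandas in Python.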

Additional observations from a re-analysis of the deposited data

How the results depend on the processing

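The count of members past the threshold was 0 under all 20 alternatives, as were the counts of the related antioxidant, NADPH oxidase and selenoprotein lists. The median difference of the members stayed positive in all 16 alternatives that gave it, from 0.030 to 0.35, and 0.074 under a median shift, which moved the median of all tested probes to -0.14. Ppargc1a stayed higher in all 20, with differences from 0.44 to 1.14 and limma adjusted p from 0.115 to 0.992. The mitochondrial minus other members stayed negative in all 14, from -0.36 to -0.12.

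Directions changed in the following cases, whose cause was not tested. Txn2 turned to -0.056 under quantile normalization, -0.078 under a median shift, -0.18 under normexp (offset 50) with quantile normalization, -0.0020 without PGC-1αf/f replicate 3 and -0.012 without mPGC-1α replicate 3, with 0.12 as its highest value when 1 array was left out. Prdx3 turned to 0.00012 without PGC-1αf/f replicate 1, and the lowest of its values with 1 array left out was -0.25, without PGC-1αf/f replicate 3. Without replicate 3 of both groups, Txn2 was -0.069, Glrx2 -0.049 and Gpx1 -0.037, while with a single array left out Glrx2 reached 0.30 and Gpx1 0.29 at most. Sod2 minus Sod1 ranged from -0.13 to 0.089 with 1 array left out. Without the 3 arrays with Xist, Txn2 was -0.047 and Sod2 minus Sod1 was -0.25.

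The 20 probes past the threshold among all tested became 11 under quantile normalization, the median shift and normexp, 456 with the deposited table without normalization, 9 with no filter on dim probes, 4 with the filter on all arrays, 138 with slide column as random block (consensus correlation 0.349) and 754 with array weights. They ranged from 0 to 24 with 1 array left out, and were 2 without replicate 3 of both groups and 0 without the 3 arrays with Xist (limma, 728 at an unadjusted p of 0.05).

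The deviations of arrays with the same replicate number correlated at 0.14, 0.13 and 0.019, and as the third was under 0.1 no pairing by number was assumed. Arrays numbered 1 and 2 also share a slide column by their names. With the replicate block, 0 probes passed, 0 of 10 members passed, and the median of the members was 0.21.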

Other observations

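The phagocyte NADPH oxidase makes superoxide, and its genes were listed as a source side of the pathway. Whether its superoxide reaches the enzymes of Sod1 or Sod2 was not tested. Of 11 genes, 7 were tested. Nox1, Nox4 and Duox1 did not pass the filter on dim probes, and Duox2 was not matched to a probe. After adjustment 0 of 7 passed (limma), and 2 of 7, Ncf4 and Rac2, were higher at an unadjusted p of 0.05 (named after their values were seen), with differences of 0.45 and 0.44, beside 7.53% of all tested probes. The count was 0 of 7 under the median shift, with no filter on dim probes, and without PGC-1αf/f replicate 1, PGC-1αf/f replicate 3, mPGC-1α replicate 2 or mPGC-1α replicate 3. It was 1 of 7 with the deposited table (Cybb), and under quantile normalization, normexp with quantile normalization or array weights (Ncf4). Without PGC-1αf/f replicate 2 it was 3 of 7 (Cybb, Ncf4 and Rac2), where 7.44% of all tested probes were higher. The highest difference there was 1.69. Cybb, the catalytic subunit, had the highest difference, 1.19 (SE 0.62, 95% interval -0.28 to 2.66), with a limma adjusted p of 0.369. It gave -0.44, 0.048 and -2.46 in PGC-1αf/f and -0.23, 0.51 and 0.44 in mPGC-1α microglia, so PGC-1αf/f replicate 3 was far below all others. Without that array the difference of Cybb was 0.44. Rac1, a small GTPase of the complex, had the lowest difference, -0.00089 (SE 0.20), with the spots of PGC-1αf/f replicate 1 and mPGC-1α replicate 2 flagged and left out. With flagged spots kept the difference of Rac1 was 0.030, and all 7 genes had positive differences. Cyba, named after its values were seen, differed by 0.0051, the lowest of the list when flagged spots were kept.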
